A study of Mus musculus with 4 samples.

Results

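The HOX genes are the homeobox transcription factor genes of the Hoxa, Hoxb, Hoxc and Hoxd clusters, and they were taken as every row of the deposited table whose symbol is Hox followed by a cluster letter and a paralog number. The rule found 27 of the 20555 genes listed: 9 of Hoxa on chromosome 6, 8 of Hoxb on chromosome 11, 7 of Hoxc on chromosome 15 and 3 of Hoxd on chromosome 2. GENCODE mouse release 21 annotates 39 HOX genes, and the other 12 (Hoxa11, Hoxa13, Hoxb1, Hoxb13, Hoxc11, Hoxc12, Hoxd1, Hoxd3, Hoxd10, Hoxd11, Hoxd12 and Hoxd13) were not analysed here. Bulk RNA-seq was available for 2 MYC-PyMT and 2 Control-PyMT mouse mammary tumour libraries. By its genotype label, the MYC-PyMT group carries a Cre named for S100a8, which is strongly expressed in neutrophils, a Rosa26 allele with a lox-stop-lox cassette before MYC, and PyMT, the polyoma middle T oncogene. The Control-PyMT group is labelled with PyMT alone, so both groups carry that oncogene and the control carries neither the Cre nor the MYC allele. The sources used here do not give age, strain, the promoter of PyMT, the species of MYC or whether the libraries come from separate mice, so the spread behind each p-value may be technical.

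HOX genes within a cluster are transcribed from the same strand and are numbered by paralog position, with low numbers at the 3′ end of the cluster and high numbers at the 5′ end. In the embryo the low-numbered genes are switched on earlier and nearer the head, an order known as collinearity, and retinoic acid activates the 3′ genes while Polycomb repression keeps the rest silent. HOX proteins bind DNA through the homeodomain, often together with PBX, MEIS or PKNOX partners, and several HOX genes act in the development of the mammary gland.

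The libraries held 34190913 and 31783846 reads in MYC-PyMT replicates 1 and 2 and 32245080 and 32879311 reads in Control-PyMT replicates 1 and 2. Values are scaled counts, which are whole reads multiplied by a constant of the library: 1 read is 1.01 and 1.10 scaled counts in the MYC-PyMT libraries, and 0.935 and 0.849 in the Control-PyMT libraries. Myc, the gene named in the design, had 3215 and 2815 scaled counts in MYC-PyMT, against 1832 and 2820 in Control-PyMT, and the groups overlapped. Whether transcripts of the MYC allele are counted in this row is not known, so the value and its test may miss them. The difference did not pass the test (log2 0.40, SE 0.23, limma adjusted p = 0.172). Its log2 value was 0.72 without Control-PyMT replicate 2 and 0.09 without Control-PyMT replicate 1, so it depended on which control library was kept. The tissue label was checked against 10 luminal epithelial markers, none of them at 0, whose summed level was 99556 and 102999 in MYC-PyMT and 128822 and 125944 in Control-PyMT.

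HOX transcripts were scarce, with 1 to 461 reads per gene over the 4 libraries, and in Control-PyMT most of them came from the Hoxb cluster. The whole set of 27 genes summed to 337 and 467 scaled counts in MYC-PyMT, against 598 and 546 in Control-PyMT. Hoxb genes made up 43.3% and 42.4% of that sum in MYC-PyMT and 80.8% and 59.7% in Control-PyMT. The Hoxa share was 27.2% and 21.6% in MYC-PyMT and 4.07% and 10.7% in Control-PyMT. Neither share overlapped between the groups. Hoxc and Hoxd sums did overlap: Hoxc summed to 37.2 and 90.1 scaled counts in MYC-PyMT and 35.5 and 85.8 in Control-PyMT, and Hoxd to 62.4 and 78.0 in MYC-PyMT and 55.2 and 75.6 in Control-PyMT.

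Differences were tested with limma on log2(scaled count + 1) across 16725 genes, those reaching a scaled count of 10 in 2 or more libraries. The test was two-sided, and a gene was called where its p, adjusted over all these genes by Benjamini-Hochberg, was under 0.05. The added 1 tends to shrink the log2 change of low genes. The fit averages logs, so its log2 value can also differ from the ratio of the group means, in either direction. The test reached 17 of the 27 HOX genes: 13 through libraries of both groups, Hoxb2, Hoxb3 and Hoxb5 through Control-PyMT alone, and Hoxa5 through MYC-PyMT alone. At the filter's edge, the second-highest library held 8.42 scaled counts for Hoxc4, just outside, and 11.04 for Hoxc9, just inside. Hoxa5, Hoxa7 and Hoxb7 were called higher in MYC-PyMT, Hoxb2, Hoxb3, Hoxb4 and Hoxb5 were called lower, and the other 10 did not pass. Over all genes tested, 23.3% were called higher, 24.6% lower and 47.9% in either direction. The 7 HOX genes called are therefore near the share that the whole table gives, and what the values below describe is how the members differ by position. On the recovered reads, edgeR's quasi-likelihood test called 1 HOX gene higher (Hoxb7) and the same 4 lower, where it called 22.1% of all genes higher and 25.3% lower. DESeq2 called 0 higher, also 0 at an unadjusted p under 0.05, and the same 4 lower, against 21.9% and 21.7% of all genes.

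**Figure D1:**
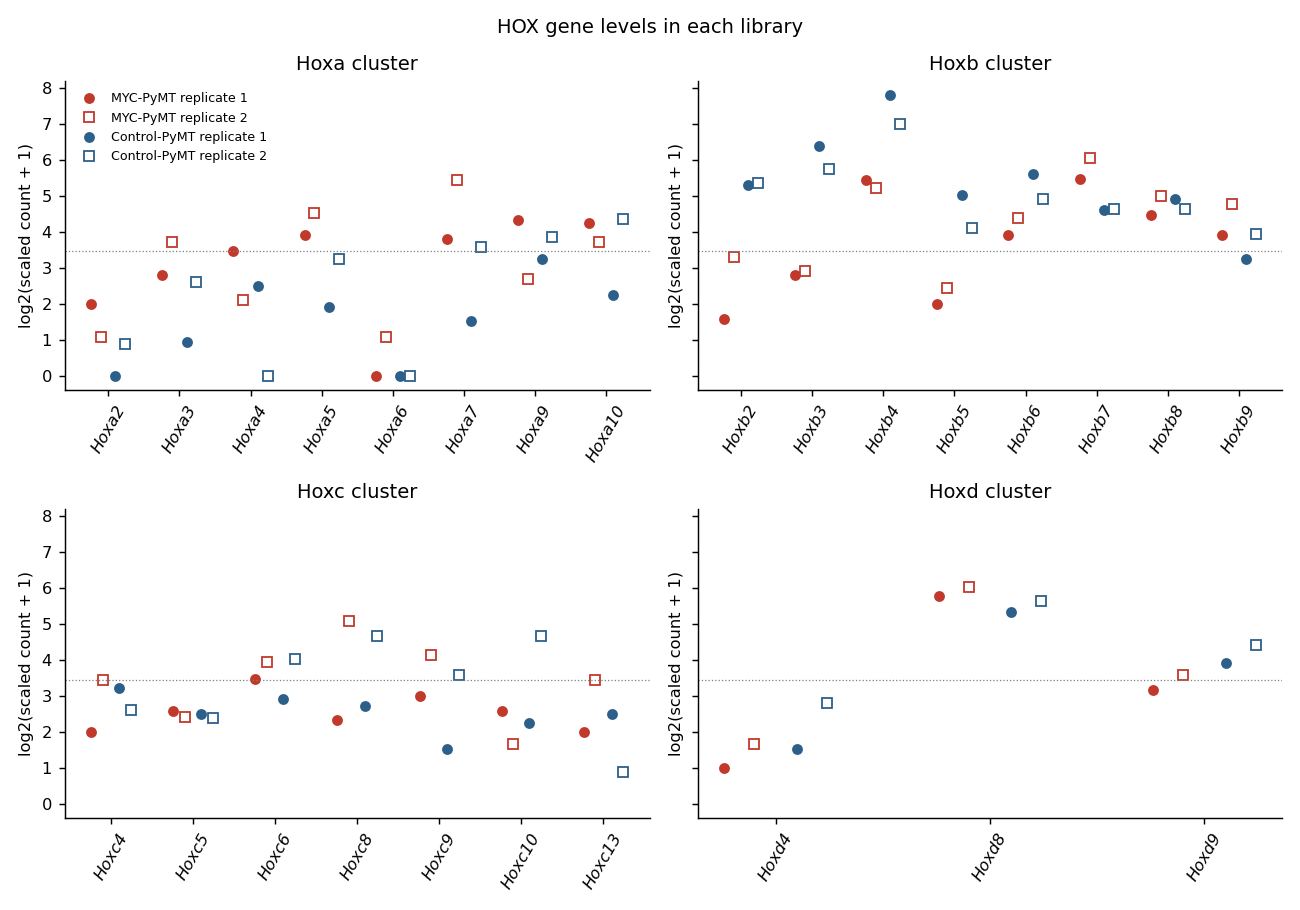
Levels of 26 HOX genes in each library, as log2(scaled count + 1), with 1 panel per cluster and genes in paralog order; red marks are MYC-PyMT, blue marks Control-PyMT, filled circles replicate 1 and open squares replicate 2, and the dotted line is a scaled count of 10. Control-PyMT lies above MYC-PyMT for Hoxb2 to Hoxb6, and the colours change places at Hoxb7.

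HOX genes are related in sequence, so reads of different members can match in part. The longest identical run between a member's GENCODE transcripts and those of a HOX gene of another cluster was between 20 and 52 bases. The sources used here do not say how reads that match several genes were counted.

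Hoxb4, a regulator of blood stem cells and of neck and hindbrain patterning, was the most abundant HOX gene per kilobase of exon in Control-PyMT. It had 42.3 and 36.3 scaled counts in MYC-PyMT, against 222 and 127 in Control-PyMT. The groups were well apart, and the mean was 4.43-fold lower in MYC-PyMT (log2 -2.07, SE 0.37, limma adjusted p = 0.00137). Per kilobase of exon the mean level was 15.3 scaled counts in MYC-PyMT and 67.8 in Control-PyMT. Hoxb4 lies at chr11:96318267-96321638 on the plus strand of GRCm38.

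The 2 neighbours of Hoxb4 on its 3′ side changed in the same direction. Hoxb3, which acts in hindbrain and thyroid development, had 6.04 and 6.59 scaled counts in MYC-PyMT, against 82.3 and 52.7 in Control-PyMT. Its mean was 10.7-fold lower in MYC-PyMT (log2 -3.19, SE 0.44, limma adjusted p = 0.000347). Hoxb2, needed for facial nerve formation in the hindbrain, had 2.01 and 8.79 scaled counts in MYC-PyMT, against 38.3 and 39.9 in Control-PyMT. Hoxb2 fell by 2.89 on the log2 scale (SE 0.60, limma adjusted p = 0.00324), and its MYC-PyMT libraries rest on 10 reads together. Without Control-PyMT replicate 1 or replicate 2 the adjusted p of Hoxb2 was 0.0722 and 0.0786, past the threshold in neither case.

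On the 5′ side of Hoxb4, Hoxb5 fell as well and Hoxb6 did not pass the test. Hoxb5, known for shoulder positioning and for gut nerve and vessel development, had 3.02 and 4.40 scaled counts in MYC-PyMT, against 31.8 and 16.1 in Control-PyMT (log2 -2.35, SE 0.54, limma adjusted p = 0.00590). Hoxb6, expressed in lateral mesoderm and early myeloid cells, had 14.1 and 19.8 scaled counts in MYC-PyMT and 47.7 and 28.9 in Control-PyMT. Its groups did not overlap, and its log2 value of -1.11 (SE 0.45) did not pass the test at an adjusted p of 0.0645. Together Hoxb2 to Hoxb6 summed to 67.4 and 75.8 scaled counts in MYC-PyMT, against 422 and 264 in Control-PyMT, a mean 4.79-fold lower. They held 20.0% and 16.2% of all HOX scaled counts in MYC-PyMT and 70.6% and 48.4% in Control-PyMT. The block ends where the direction of these same values turns, so its lower sum and share describe it and are not a separate test.

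From Hoxb7 on, the pattern differed. Hoxb7, a factor tied in human breast cancer cells to growth factor production and invasion, had 43.3 and 64.8 scaled counts in MYC-PyMT, against 23.4 and 23.8 in Control-PyMT. Both MYC-PyMT libraries were above both Control-PyMT libraries, and the mean was 2.29-fold higher (log2 1.14, SE 0.40, limma adjusted p = 0.0380). This call was lost without MYC-PyMT replicate 2 (adjusted p = 0.258), without Control-PyMT replicate 1 (0.125), without Control-PyMT replicate 2 (0.124), with DESeq2 (0.127), with upper-quartile scaling (0.0586) and with the length trend removed (0.0814). Hoxb8, a regulator of myeloid progenitors whose locus is also active in microglia precursors, had 21.1 and 30.8 scaled counts in MYC-PyMT and 29.0 and 23.8 in Control-PyMT. The groups overlapped, with a log2 value of -0.04 (SE 0.42, adjusted p = 0.948). Hoxb9, which acts with its paralogs in the growth of the mammary gland, had 14.1 and 26.4 scaled counts in MYC-PyMT and 8.42 and 14.4 in Control-PyMT. Its groups overlapped as well, with a log2 value of 0.75 (SE 0.52, adjusted p = 0.254).

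Hoxb6 and Hoxb7, which are neighbours in the cluster, differed in direction, though Hoxb6 was not called and the Hoxb7 call was lost in several alternatives. Beyond them Hoxb8 stood at log2 -0.04 and Hoxb9 at 0.75, neither called. The log2 ratio of Hoxb6 to Hoxb7 was -1.55 and -1.66 in MYC-PyMT, against 1.00 and 0.27 in Control-PyMT. These ratios are of scaled counts not divided by length. Per kilobase of exon, Hoxb6 had 7.17 and 10.1 scaled counts in MYC-PyMT and 24.3 and 14.7 in Control-PyMT. Hoxb7 had 28.0 and 42.0 per kilobase in MYC-PyMT and 15.1 and 15.4 in Control-PyMT. Per kilobase, Hoxb7 was thus above Hoxb6 in both MYC-PyMT libraries, below it in Control-PyMT replicate 1 and slightly above it in Control-PyMT replicate 2. By mean level per kilobase, the order in MYC-PyMT was Hoxb7 with 35.0 scaled counts, Hoxb4 with 15.3, Hoxb8 with 9.85, Hoxb6 with 8.62, Hoxb9 with 7.86, Hoxb2 with 1.55, Hoxb3 with 1.49 and Hoxb5 with 1.33. In Control-PyMT it was Hoxb4 with 67.8, Hoxb6 with 19.5, Hoxb3 with 15.9, Hoxb7 with 15.3, Hoxb2 with 11.2, Hoxb8 with 10.01, Hoxb5 with 8.60 and Hoxb9 with 4.44.

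**Figure D2:**
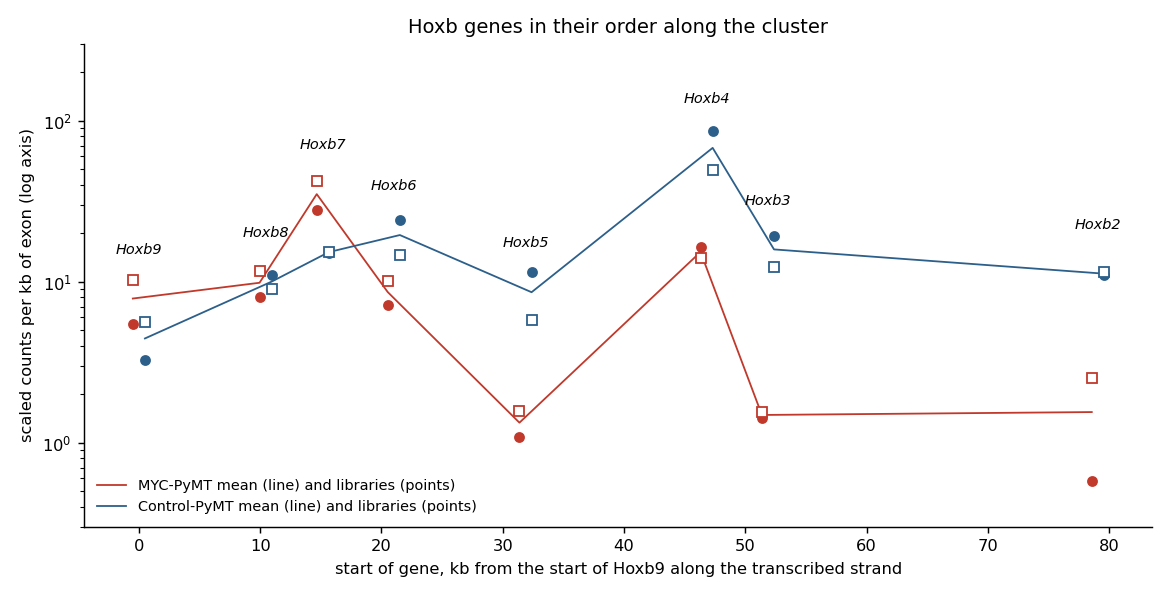
Hoxb genes by the distance of their start from that of Hoxb9 in kilobases, against scaled counts per kilobase of exon on a log axis; lines join group means (red MYC-PyMT, blue Control-PyMT), filled circles are replicate 1 and open squares replicate 2. The blue line lies above the red one from Hoxb6 to Hoxb2, and the red above the blue at Hoxb7 and Hoxb9.

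Upstream sequence is shown for Hoxb4, a gene that fell, and Hoxb8, another gene of the cluster, whose groups overlapped. Each is the 250 bases before the RefSeq gene start in GRCm38.p6, plus strand. Capitals mark matches on either strand to CACGTG (the E-box bound by MYC with MAX), TGATTNAT (a site that PBX and HOX proteins bind together), CCAAT or TATAAA.
Hoxb4, chr11:96318017-96318266: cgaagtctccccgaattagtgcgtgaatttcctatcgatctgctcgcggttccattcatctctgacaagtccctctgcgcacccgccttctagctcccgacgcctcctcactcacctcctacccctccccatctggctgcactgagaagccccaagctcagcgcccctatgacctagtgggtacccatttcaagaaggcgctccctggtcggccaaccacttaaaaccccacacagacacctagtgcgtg
Hoxb8, chr11:96281655-96281904: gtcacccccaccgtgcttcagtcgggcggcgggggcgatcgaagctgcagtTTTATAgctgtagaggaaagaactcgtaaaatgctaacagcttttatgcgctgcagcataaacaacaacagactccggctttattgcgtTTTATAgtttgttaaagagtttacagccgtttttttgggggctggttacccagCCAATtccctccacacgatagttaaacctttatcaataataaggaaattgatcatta
The Hoxb4 stretch held no match, and the Hoxb8 stretch held CCAAT on the plus strand and TATAAA at 2 places on the other strand. The same search covered 14 RefSeq windows of 13 members. Of the Hoxb cluster it held only Hoxb4 and Hoxb8, so the called genes Hoxb2, Hoxb3, Hoxb5 and Hoxb7 were not covered. CACGTG was in 0 of the 14 windows, against 6.02% of 32851 windows of all genes. CANNTG, which includes CACGTG and was not put in capitals, was in 9 of 14, against 66.2%. CCAAT was in 7 of 14, against 33.8%, TATAAA in 3 of 14, against 12.4%, and TGATTNAT in 1 of 14, against 2.82%. A match describes letters and is not a binding site.

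The Hoxa cluster had more reads in MYC-PyMT, at low depth. Its 9 genes summed to 91.6 and 101 scaled counts in MYC-PyMT, against 24.3 and 58.6 in Control-PyMT. Only 4 of them passed the filter, and 2 were called. Hoxa5, which acts in lung and mammary epithelium and activates p53 in human breast cancer cells, had 14.1 and 22.0 scaled counts in MYC-PyMT, against 2.81 and 8.49 in Control-PyMT. It rose by 1.63 on the log2 scale (SE 0.59, limma adjusted p = 0.0440). Hoxa7, active in axial patterning and blood progenitors, had 13.1 and 42.9 scaled counts in MYC-PyMT, against 1.87 and 11.04 in Control-PyMT, and rose by 2.08 (SE 0.76, limma adjusted p = 0.0464). In neither gene did the groups overlap, and the replicates of a group differed up to 5.90-fold.

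Both Hoxa calls depended on single libraries and on the processing, with Hoxa5 not called in 8 and Hoxa7 in 11 of 14 alternatives. Without MYC-PyMT replicate 2, Hoxa5 stood at log2 1.33 (adjusted p = 0.152) and Hoxa7 at 1.26 (0.181). Without Control-PyMT replicate 1, Hoxa5 stood at 0.97 (0.188) and Hoxa7 at 1.05 (0.369), and without Control-PyMT replicate 2 Hoxa7 stood at 3.11 (0.0633). Hoxa9, a leukaemia-linked factor that with its paralogs acts in mammary growth, had 19.1 and 5.49 scaled counts in MYC-PyMT and 8.42 and 13.6 in Control-PyMT. Hoxa10, needed for uterine function, had 18.1 and 12.1 in MYC-PyMT and 3.74 and 19.5 in Control-PyMT. In both genes the groups overlapped, with log2 values of -0.04 (SE 0.62, adjusted p = 0.968) for Hoxa9 and 0.68 (SE 0.68, adjusted p = 0.437) for Hoxa10.

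Hoxa genes under the filter had few reads. Hoxa3 had 6.04 and 12.1 scaled counts in MYC-PyMT and 0.935 and 5.10 in Control-PyMT, without overlap. Hoxa2 and Hoxa4 lay between 1.10 and 10.1 scaled counts in MYC-PyMT and between 0 and 4.68 in Control-PyMT. Hoxa6 had 1 read in all, in MYC-PyMT replicate 2. A count of 0 leaves room for up to 3 reads in a library.

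**Figure D3:**
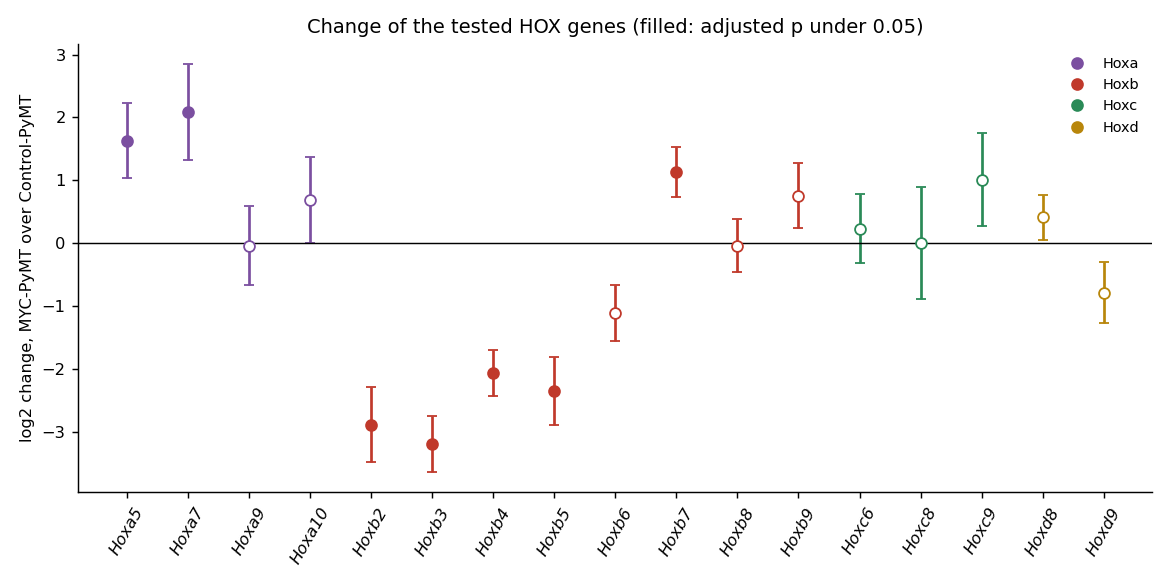
Log2 change in MYC-PyMT over Control-PyMT for the 17 HOX genes tested, with bars of 1 SE from the limma fit; filled points have an adjusted p under 0.05. Hoxb2 to Hoxb5 lie at or below -2.07, and Hoxb7, Hoxa5 and Hoxa7 lie between 1.14 and 2.08.

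No Hoxc gene passed the test, and in Hoxc8 the replicates differed more than the groups. Hoxc8, a trunk patterning gene also linked to the placing of mammary buds, had 4.03 and 33.0 scaled counts in MYC-PyMT and 5.61 and 24.6 in Control-PyMT. Here replicate 2 was the higher in each group, and the log2 value was 0.01 (SE 0.90, adjusted p = 0.996). Hoxc6, which is expressed in the mammary gland, had 10.1 and 14.3 in MYC-PyMT and 6.55 and 15.3 in Control-PyMT (log2 0.23, SE 0.55, adjusted p = 0.754). Hoxc9, a gene of thoracic identity, had 7.04 and 16.5 in MYC-PyMT and 1.87 and 11.04 in Control-PyMT (log2 1.01, SE 0.74, adjusted p = 0.286). The 7 Hoxc genes all overlapped between the groups. Of the 16 Hoxa and Hoxc genes, replicate 2 exceeded replicate 1 in 9 in MYC-PyMT and 10 in Control-PyMT, and in 6 it did so in both groups.

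The other Hoxc genes were under the filter. Hoxc10, a gene of lumbar and hindlimb identity, had 5.03 and 2.20 scaled counts in MYC-PyMT and 3.74 and 24.6 in Control-PyMT, high in Control-PyMT replicate 2 alone. Hoxc4, Hoxc5 and Hoxc13, the last a regulator of hair keratins, lay between 3.02 and 9.89 in MYC-PyMT and between 0.849 and 8.42 in Control-PyMT.

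Hoxd was represented by 3 genes. Hoxd8, expressed in trunk mesenchyme, had similar values in all libraries, with 53.3 and 64.8 scaled counts in MYC-PyMT and 39.3 and 49.3 in Control-PyMT. Replicates of Hoxd8 differed 1.22-fold in MYC-PyMT and 1.25-fold in Control-PyMT. The groups did not overlap, but the log2 value of 0.41 (SE 0.36) had an adjusted p of 0.372. Hoxd9, which acts in mammary growth with Hoxa9 and Hoxb9, had 8.05 and 10.99 in MYC-PyMT and 14.0 and 20.4 in Control-PyMT, again without overlap (log2 -0.78, SE 0.49, adjusted p = 0.210). Hoxd4 had 1.01 and 2.20 in MYC-PyMT and 1.87 and 5.95 in Control-PyMT.

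Across all 27 members, 12 had groups that did not overlap, 6 higher and 6 lower in MYC-PyMT, where 72.1% of all genes listed did not overlap. Fitted with no level filter, the members' median log2 value was 0.23, against -0.05 over all genes. Such medians were -1.59 for Hoxb, 0.06 for Hoxc and -0.78 for Hoxd. Outside Hoxb no gene at positions 1 to 3 was tested, so Hoxb2 and Hoxb3 have no tested counterpart. With no level filter their paralogs Hoxa2 and Hoxa3 stood at log2 1.09 and 1.48. These rest on 4 and 17 reads in MYC-PyMT and 1 and 7 in Control-PyMT. At positions 4 to 8 outside Hoxb 2 of 5 tested genes were called, both higher (Hoxa5 and Hoxa7), with a median of 0.32 over the 10 listed. None of the 4 tested at positions 9 to 13 outside Hoxb was called, and the median over 6 listed was 0.32.

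Hoxb3os, a transcript antisense to Hoxb3 and Hoxb2 at chr11:96343072-96354691 on the minus strand, fell alongside them. It had 3.02 and 3.30 scaled counts in MYC-PyMT, against 23.4 and 17.8 in Control-PyMT, without overlap (log2 -2.37, SE 0.51, limma adjusted p = 0.00403). Hoxb3os passed the level filter through Control-PyMT alone, and each MYC-PyMT library held 3 of its reads. With DESeq2 its adjusted p was 0.0596. The kit marks strand, but whether the counting used it is not stated, and reads of Hoxb3os and of the genes it overlaps cannot be told apart. Annotated spans also overlap between Hoxa3 and Hoxa4, Hoxa5 and Hoxa6, and between Hoxc5 and other Hoxc genes. The span of the antisense Hoxaas3 overlaps those of Hoxa3 to Hoxa7, and the span of Hoxd3os1 overlaps those of Hoxd4 and Hoxd8. Values of all these genes are therefore less certain.

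Among the 9 PBX, MEIS and PKNOX genes, whose proteins bind DNA with HOX proteins, 1 rose, 3 fell and 5 did not pass, a share near the 47.9% called over all genes tested. Meis3, a hindbrain cofactor, had 48.3 and 70.3 scaled counts in MYC-PyMT, against 320 and 375 in Control-PyMT (log2 -2.55, SE 0.31, limma adjusted p = 0.000163). Pknox2 had 20.1 and 23.1 in MYC-PyMT, against 83.2 and 138 in Control-PyMT (log2 -2.26, SE 0.39, limma adjusted p = 0.00117). Meis2, a cofactor of limb and neural crest development, moved the other way, with 82.5 and 102 in MYC-PyMT, against 27.1 and 17.8 in Control-PyMT (log2 2.01, SE 0.39, limma adjusted p = 0.00210). These 3 genes were called under every alternative tried. Meis1, a cofactor of HOX proteins in blood stem cells and leukaemia, had 286 and 187 in MYC-PyMT, against 782 and 325 in Control-PyMT (log2 -1.12, SE 0.39, limma adjusted p = 0.0382). Without Control-PyMT replicate 1 Meis1 stood at -0.49 (adjusted p = 0.338), and without MYC-PyMT replicate 2 at -0.82 (0.0735). It was also not called with no variance trend (adjusted p = 0.109) or with the length trend removed (log2 -0.83, adjusted p = 0.111). Pbx2, Pbx3, Pbx4 and Pknox1 did not pass, with log2 values of -0.16, 0.63, -1.03 and -0.25.

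Retinoid genes, which make, carry, break down or sense the signal that activates 3′ HOX genes in the embryo, were mostly lower in MYC-PyMT. Of 20 retinoid and CDX genes in the list, Cdx1, Cdx2 and Cdx4 were not analysed here, and of the 17 tested 11 fell, 1 rose and 5 did not pass. Their median log2 value was -0.91, against -0.02 over all genes tested, of which 24.6% were called lower and 23.3% higher. Among the 11, Cyp26a1 and Rxrg passed the level filter through Control-PyMT alone, with 12 and 8 reads over the MYC-PyMT libraries. Aldh1a3, which makes retinoic acid, had 249 and 295 scaled counts in MYC-PyMT, against 2129 and 1892 in Control-PyMT (log2 -2.89, SE 0.21, limma adjusted p = 1.34e-05). Stra6, a retinol uptake receptor, had 13.1 and 17.6 in MYC-PyMT, against 269 and 149 in Control-PyMT (log2 -3.64, SE 0.40, limma adjusted p = 9.89e-05). Aldh1a1, another retinaldehyde dehydrogenase, changed by -2.29 (SE 0.27, limma adjusted p = 0.000162). Rxrb, a nuclear receptor partner, was the 1 that rose (log2 0.82). The receptors Rara, Rarb and Rarg, which read the signal, did not pass, with log2 values of -0.20, -0.85 and -0.22.

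**Figure D4:**
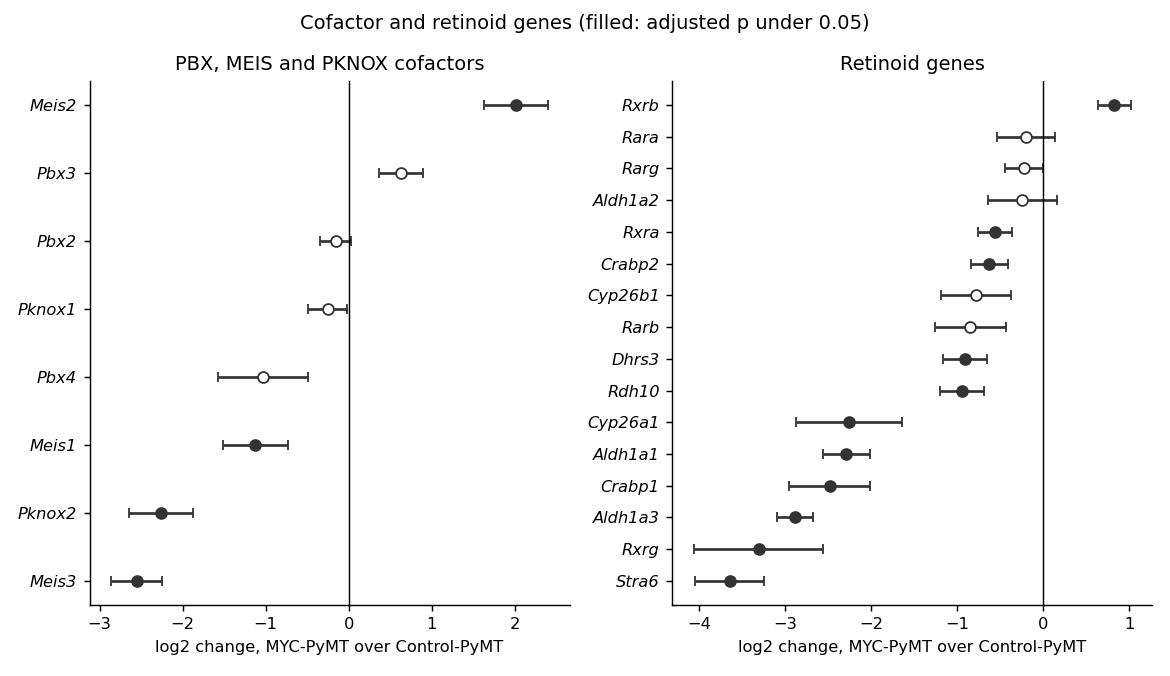
Log2 change in MYC-PyMT over Control-PyMT for 8 HOX cofactor genes (left) and 16 retinoid genes (right), with bars of 1 SE from the limma fit; filled points have an adjusted p under 0.05. Meis3 and Pknox2 lie at -2.55 and -2.26 and Meis2 at 2.01, and all retinoid genes shown but Rxrb lie below 0.

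Of 32 Polycomb and trithorax regulators, which hold HOX clusters silent or active, 8 rose, 6 fell and 18 did not pass, with a median log2 value of 0.12. The share called was close to that of all genes. Phc3, a Polycomb repressive complex subunit, had 1773 and 1518 scaled counts in MYC-PyMT, against 3841 and 3901 in Control-PyMT (log2 -1.24, limma adjusted p = 0.000507). Wdr5, a subunit of the MLL complexes that write active marks, had 5148 and 6011 in MYC-PyMT, against 2499.8 and 2215 in Control-PyMT (log2 1.24, limma adjusted p = 0.000540). Suz12, a core subunit of the complex that writes the repressive mark, rose by 0.89, and Psip1, which ties MLL to chromatin, rose by 0.90 (limma adjusted p = 0.00388 and 0.00389). Ezh2, the enzyme of that repressive complex, had 0.44 on the log2 scale and did not pass (adjusted p = 0.0853).

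Cell type markers differed between the groups, in lists where the counts called stand against 47.9% of all genes called and several are near that share. Of 9 basal and myoepithelial markers 6 fell and 1 rose, and their sum was 11729 and 25688 scaled counts in MYC-PyMT, against 47534 and 47750 in Control-PyMT. The list was split: Acta2, Myh11, Cnn1, Mylk, Oxtr and Trp63 fell, and the keratin Krt14 rose (log2 1.24). The keratins Krt5 and Krt17 did not pass, with log2 values of 0.53 and 0.71. Of 10 luminal markers 6 fell and 4 did not pass, and their sum was 99556 and 102999 in MYC-PyMT, against 128822 and 125944 in Control-PyMT. Pgr, picked with its values in view, fell far more than that sum, with 11.1 and 3.30 in MYC-PyMT, against 1645 and 1749 in Control-PyMT. Of 6 keratinocyte and hair markers the 5 tested fell, with sums of 114 and 147 in MYC-PyMT, against 3653 and 1893 in Control-PyMT, and Krt25 was at 0 in both MYC-PyMT libraries. Of 3 leukocyte markers 2 fell, with sums of 551 and 662 in MYC-PyMT, against 1355 and 1249 in Control-PyMT. The 10 luminal and 9 basal markers all had reads in every library. Of 10 fibroblast markers 2 rose and 2 fell, and sums were 23293 and 34046 in MYC-PyMT and 23280 and 33092 in Control-PyMT, overlapping. Of 8 endothelial markers 4 rose and 1 fell, with sums of 3701 and 4433 in MYC-PyMT, against 2390 and 3203 in Control-PyMT. Of 5 neutrophil markers 2 rose, with overlapping sums of 2663 and 3869 in MYC-PyMT and 3157 and 1030 in Control-PyMT. Adipocyte sums were 3444 and 2920 in MYC-PyMT, against 658 and 2094 in Control-PyMT, with 1 of 5 markers up and 1 down. Skeletal muscle sums were 675 and 1935 in MYC-PyMT and 121 and 981 in Control-PyMT, with 1 of 5 up, and macrophage sums were 7339 and 8359 in MYC-PyMT and 7796 and 8966 in Control-PyMT, with 1 of 4 up and 1 down. The part of these markers in the HOX, cofactor and retinoid values was not tested, and in bulk tumour fewer cells of a type and less RNA per cell cannot be told apart.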

How the data were processed

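Poly(A)-selected TruSeq stranded libraries were made from 500 ng of tumour RNA with 8 PCR cycles and RNA integrity numbers of 3.3 to 9.6 that are tied to no sample, per the labels' protocols. Per the submitters' processing notes, the authors used HISAT2, DESeq2 and mm10 (GRCm38.p5). The sources used here name no read counter, strand setting or annotation release. The deposited values are a signal, scaled counts per gene in 4 libraries, not divided by gene length. Every value was a whole multiple of 1 read within 0.001 reads (100% of values), so reads were recovered as counts. The main test, limma 3.58.1 (R 4.3.3) on log2(value + 1), used all 4 libraries and no covariate. Alternatives were edgeR 4.0.16 (quasi-likelihood) and DESeq2 1.42.0 on recovered reads, other pseudocounts, filters and scalings, no variance trend, a replicate block, leaving out each library, and removal of the trend with exon length (chosen after seeing the data). The procedure was tested on simulated data that gave every gene the same dispersion, a setting not taken from these replicates. It therefore does not gauge the error for low and variable genes such as the HOX genes. GENCODE mouse release 21 held 20463 of the gene IDs and gave coordinates and exon lengths, promoters came from RefSeq, and levels per kilobase divide scaled counts by the length of merged exons. HOX genes were named, with their antisense transcripts, the cofactors and the 4 genes of smallest p in each other list, except 3 genes that enter the counts and sums but are not reported here; Ezh2, Rxrb, Rara, Rarb, Rarg, Pgr and Krt25 were added with their values in view. The members and lists were chosen with earlier results of these data known. A count of 0 is read as up to 3 reads, for counting error alone: without molecular identifiers, PCR copies are not separate molecules. Replicates of a group differed beyond counting noise (chi-square of reads per degree of freedom 39.7 in MYC-PyMT and 54.7 in Control-PyMT) and were kept apart.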

Additional observations from a re-analysis of the deposited data

How the results depend on the processing

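Hoxb3, Hoxb4 and Hoxb5 kept their calls under every alternative that tested them. The alternatives reuse the same 4 libraries, and Hoxb3 and Hoxb5 passed the level filter through Control-PyMT alone, so this is not separate support. The count of HOX genes called lower, 4, was 2 with a level filter of 50, where Hoxb2 and Hoxb5 were not tested, and 3 to 4 when a library was left out. The count called higher, 3, was 1 with no level filter, with TMM scaling and with edgeR, and 0 with a level filter of 50, which tested 3 HOX genes and none of Hoxa5, Hoxa7 and Hoxb7. It was also 0 with upper-quartile scaling, DESeq2 and the length trend removed. At an unadjusted p under 0.05 those 4 settings had 0, 3, 0 and 3 genes higher. It was 0 to 3 when a library was left out, with 0 without MYC-PyMT replicate 2 or Control-PyMT replicate 1 and 1 without Control-PyMT replicate 2. Hoxb6 was called lower with upper-quartile scaling (adjusted p = 0.0473), no variance trend (0.0428) and the length trend removed (0.0408). Polycomb and trithorax calls, 14, were 8 with no variance trend and 7 to 12 when a library was left out, with 7 without MYC-PyMT replicate 2 or Control-PyMT replicate 2. Cofactor calls stayed at 3 or 4 and retinoid calls at 8 to 12. Only HOX genes that were not called changed sign. Hoxa9 stood at 0.011 with a pseudocount of 5, 0.13 with edgeR, 0.17 with DESeq2, 0.043 with the length trend removed and -0.85 to 0.78 with a library left out. Hoxc8 stood at -0.010 with a pseudocount of 0.5, -0.025 with TMM, -0.099 with upper-quartile scaling, -0.070 with the length trend removed and -1.37 to 1.38 with a library left out. With a library left out Hoxa10 ranged from -0.38 to 1.74, Hoxb8 from -0.30 to 0.22, Hoxc6 from -0.32 to 0.79 and Hoxc9 from -0.022 to 2.05. The cause was not tested. Upper-quartile scaling moved the median log2 value of all genes to -0.13. Replicate numbers were not treated as pairs. The replicate differences of the groups had r = -0.0886 across 16725 genes, but with 1 difference per group this cannot exclude pairing. With a replicate block, 3 HOX genes were higher and 4 lower and 8039 genes were called, against 8010. Depth limits the members under 10 scaled counts, where a few reads decide a value.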

Other observations

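Genes annotated within 200 kb of the HOX clusters, looked at after the data were seen, were called higher in 5 cases (Snf8, Atp5g1, Smug1, Lnp and Mtx2) and lower in 1 (Calcoco1), outside the clusters' own spans. Skap2, Ube2z, Cbx5, Mrpl23-ps1 and Skap1 were also tested there and did not pass. For comparison, 47.9% of all genes tested were called in either direction, so calls are common far from HOX genes too. The calls of Snf8, Smug1 and Lnp, with log2 values of 0.70, 0.55 and 0.57, were lost in 3, 6 and 7 of 15 alternatives, with adjusted p up to 0.163, 0.197 and 0.258. Atp5g1, a subunit gene of ATP synthase beside Hoxb, had 6335 and 6310.1 scaled counts in MYC-PyMT, against 2426 and 2237 in Control-PyMT, and rose (log2 1.44, limma adjusted p = 0.000181). The pseudogene Gm11539, which lies within the span of the Hoxb cluster between Hoxb9 and the annotated Hoxb13, had 303 and 316 in MYC-PyMT, against 142 and 134 in Control-PyMT (log2 1.16, limma adjusted p = 0.00468). With the length trend removed Gm11539 stood at 0.48 (adjusted p = 0.149), and reads of a processed pseudogene may be shared with its parent gene. On the Hoxb2 side, Skap1, an adaptor gene of T cells, had 8.05 and 5.49 in MYC-PyMT and 15.9 and 19.5 in Control-PyMT (log2 -1.28, adjusted p = 0.0556), and did not pass. Mtx2, a mitochondrial import gene beside Hoxd, had 3755 and 4188 in MYC-PyMT, against 2136 and 1587 in Control-PyMT, and rose (log2 1.11, limma adjusted p = 0.00172). Calcoco1, a coactivator gene beside Hoxc, fell (log2 -0.81, limma adjusted p = 0.0143), and its adjusted p was 0.0539, 0.140 and 0.162 without Control-PyMT replicate 1, Control-PyMT replicate 2 and MYC-PyMT replicate 2, and 0.0624 with no variance trend.

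Transcripts antisense to HOX genes other than Hoxb3os were under the level filter and were not tested. Hoxaas3, antisense within the Hoxa cluster, had 6.04 and 13.2 scaled counts in MYC-PyMT and 1.87 and 1.70 in Control-PyMT, without overlap. Hotairm1 had 0 and 3.30 in MYC-PyMT and 1.87 and 0.849 in Control-PyMT. Hoxd3os1 had 0 and 8.79 in MYC-PyMT and 2.81 and 2.55 in Control-PyMT. Hoxaas2 had 1 read in all, in Control-PyMT. Gm11536, within the span of Hoxb3 on the other strand, was at 0 in both MYC-PyMT libraries and at 8.42 and 1.70 in Control-PyMT.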
